A study of Mus musculus with 40 samples.

Results

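The 10 genes described here are the ErbB receptors Egfr, Erbb2 and Erbb3, the EGF-type ligands Areg, Ereg, Hbegf, Tgfa, Btc and Epgn, and Adam17, the protease that releases several of those ligands from the cell surface. They were chosen by symbol from the 55414 genes of a table of transcript abundances, and all 10 were found. The libraries came from cells of the mpkCCD line, immortalized mouse kidney collecting duct cells. All cells, controls included, were grown on permeable supports, for 4 days in complete medium and then for 3 days in a simple medium, and were exposed for 72 hours to dDAVP at 0.1 nM, an analogue of vasopressin. The maintenance medium contained epidermal growth factor at 10 ng/mL, and the simple medium lists none. Unmodified wild-type control clones were compared with knockouts of CREB-family transcription factors, labelled ATF1-KO where ATF1 is named alone, ATF1/CREB1-KO where CREB1 is added, and ATF1/CREB1/CREM-KO where all 3 are. The grouping into 3 experiments was inferred from the order of library numbers in the labels and from the design text. The numbers themselves mark no break between experiments. The grouping puts control clones 1 to 5 with the 5 ATF1-KO libraries (experiment 1). Control clones 6 to 8 go with the 3 ATF1/CREB1-KO libraries (experiment 2) and control clones 9 to 11 with the 3 ATF1/CREB1/CREM-KO libraries (experiment 3). The labels do not call these experiments batches and do not state if replicates under a knockout label are separate clones, so p-values measure only the spread between these libraries, which may be technical. Each label was compared with the control clones of its own experiment.

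EGF-type ligands are made as membrane-anchored precursors, which metalloproteases such as ADAM17 and ADAM10 cut to release the active peptide. The ligands bind the EGF receptor, and betacellulin, epiregulin and HB-EGF also bind ErbB4. ErbB2 has no known ligand and acts as a partner of the other receptors, while ErbB3 binds neuregulins and has little kinase activity of its own. In the collecting duct, EGF receptor signalling is known to oppose the action of vasopressin on water transport, and amphiregulin and epiregulin are known as cAMP-inducible genes.

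Amphiregulin (Areg), betacellulin (Btc) and Egfr are the members whose levels the comparisons below turn on, so the 250 bases before their RefSeq transcription starts are shown on the gene's own strand (RefSeq, build GRCm38.p6). The windows lie at chr5:91139349-91139598 on the plus strand for Areg, chr5:91402995-91403244 on the minus strand for Btc and chr11:16751953-16752202 on the plus strand for Egfr. Capitals mark the full cAMP response element TGACGTCA, its shorter core TGACG on either strand (read CGTCA on the other one) and TATAAA, all searched on both strands.
Areg: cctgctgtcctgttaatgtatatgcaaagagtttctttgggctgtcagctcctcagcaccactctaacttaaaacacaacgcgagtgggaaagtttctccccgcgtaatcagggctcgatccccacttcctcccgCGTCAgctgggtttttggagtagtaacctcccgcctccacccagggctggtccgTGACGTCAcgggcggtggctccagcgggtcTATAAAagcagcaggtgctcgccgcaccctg
Btc: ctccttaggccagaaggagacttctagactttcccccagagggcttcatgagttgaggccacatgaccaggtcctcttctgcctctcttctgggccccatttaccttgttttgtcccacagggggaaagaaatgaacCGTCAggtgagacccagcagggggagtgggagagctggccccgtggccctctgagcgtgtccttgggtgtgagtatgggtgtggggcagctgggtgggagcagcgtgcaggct
Egfr: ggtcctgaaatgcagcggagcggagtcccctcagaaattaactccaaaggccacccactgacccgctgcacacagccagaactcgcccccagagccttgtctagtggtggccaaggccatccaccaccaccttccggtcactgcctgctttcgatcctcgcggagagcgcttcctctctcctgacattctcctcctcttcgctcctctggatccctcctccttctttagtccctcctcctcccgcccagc
The Areg window held the full element 61 to 54 bases before the start, a palindrome that counts as 2 of its 3 cores, and TATAAA 31 to 26 bases before it. The Btc window held 1 core, 113 to 109 bases before the start, and the Egfr window held none of these letters. RefSeq promoter windows were searched for 7 of the 10 members. Those of Erbb3, Ereg and Hbegf were not searched, so whether they hold these letters was not tested. Of the other 4 searched, Erbb2 held 1 core, Epgn held 1 core and TATAAA, and Tgfa and Adam17 held no match. Among 32851 RefSeq promoters of the same length, 1.55% held the full element, 17.8% the core and 12.4% TATAAA. These are matches of letters and not sites of binding.

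Each library had 17296 to 20703 genes above 0. Sequencing depth is unknown because the values are TPM, and no pair of columns was identical. Ribosomal protein genes took 7.05% to 15.1% of the TPM in the 6 libraries of experiment 2 and 2.61% to 4.03% in the other 16, so levels are compared within experiments. Some collecting duct markers were present, with the water channel gene Aqp2 at 15.1 to 2350 TPM and the vasopressin receptor gene Avpr2 at 33.4 to 227 TPM. Others were at or near 0. The principal cell factor Tfap2b was at 0 in 21 of 22 libraries, and the median TPM was 0.045 for Elf5, 0.375 for Aqp4 and 0.495 for Scnn1b. Summed over 12 principal cell markers, levels were 609 to 1400 TPM in the libraries labelled ATF1/CREB1/CREM-KO and 1570 to 3650 TPM in control clones 9 to 11. Aqp2 is 1 of these 12, and the sum without it was not compared. The 5 epithelial markers summed to 6270 to 7630 TPM and 8090 to 9380 TPM in the same groups, and the 3 markers of thick limb and distal tubule to 1.96 to 4.4 TPM and 0.04 to 0.14 TPM. The higher of these last sums was mostly Slc12a3, since Umod reached at most 0.69 TPM and Slc12a1 at most 0.03 TPM in any library. The 3 leukocyte markers, mostly Cd68, summed to 2.28 to 3.35 TPM and 5.0 to 8.02 TPM in these knockout libraries and control clones, and the 4 proximal tubule markers, mostly Lrp2, overlapped at 1.38 to 25.4 TPM and 20.0 to 21.6 TPM. Aqp2 itself averaged 15.5 ± 0.499 TPM (SD, n = 3) in the same knockout libraries, against 1520 ± 825 TPM (SD, n = 3) in control clones 9 to 11. Of 6 intercalated cell markers, Atp6v1b1 (14.4 to 103 TPM) and Aqp6 (0.67 to 20.8 TPM) were above 0 in every library, while the defining Foxi1, Slc4a1 and Slc26a4 were at 0 in 20, 14 and 18 of 22. Their sum was 68.2 to 102 TPM in the libraries labelled ATF1/CREB1/CREM-KO and 89.2 to 114 TPM in control clones 9 to 11. The 5 fibroblast markers summed to at most 1.95 TPM and the 3 endothelial markers to at most 0.52 TPM in any library. Of the targeted genes, mean Atf1 TPM was 63.0%, 77.8% and 80.8% of its own-experiment control for the ATF1-KO, then the ATF1/CREB1-KO, then the ATF1/CREB1/CREM-KO label, and mean Creb1 TPM was 61.0% and 49.6% in the latter pair. Mean Crem TPM was 133% of its own-experiment control for ATF1-KO, 253% for ATF1/CREB1-KO and 135% for ATF1/CREB1/CREM-KO. It was thus not lower under the label that names CREM. A gene-level abundance does not show an edit, so knockout groups are named below by their labels only.

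In the 8 control clones of experiments 1 and 3, Erbb2 was the most abundant member, at a mean of 161 ± 7.36 TPM (SD, n = 8). Erbb3, at 89.1 ± 12.6 TPM, and Adam17, at 86.5 ± 4.26 TPM, overlapped each other and lay below every Erbb2 value. A middle group followed, in which neighbours overlapped: Egfr at 47.5 ± 8.1 TPM, Btc at 42.8 ± 16.6 TPM, Hbegf at 41.1 ± 6.77 TPM and Tgfa at 32.8 ± 3.23 TPM. The cAMP-inducible ligands Areg, at 4.24 ± 1.61 TPM, and Ereg, at 3.36 ± 1.52 TPM, were lower than all of these and overlapped each other. Epgn, which encodes epigen, reached at most 0.15 TPM. All of these are levels per length of transcript, in TPM. Erbb4, the remaining ErbB receptor, was at 0 in 21 of 22 libraries, and Egf ranged from 0.13 to 1.6 TPM over the 22. Both are named for their place in the family and fall outside the naming rule.

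The change that passed the test was that of Btc in the libraries labelled ATF1/CREB1/CREM-KO, where it fell to 23.9% of its control mean. Differences were tested with limma on log2(TPM + 1), kept to genes that averaged 1 TPM or more in the comparison, and a gene is called where its Benjamini-Hochberg adjusted p over all genes tested is under 0.05. In the ATF1-KO comparison 9 members were tested and 0 were called, with 1 at an unadjusted p under 0.05. The background there was 0% of 13318 genes called, with 1014 (7.61%) at an unadjusted p under 0.05. The changes of 8 of the 9 lay above 0, with a median log2 change of 0.13 beside -0.00 over all genes tested. With 1 library left out, 6 to 8 of the 9 lay above 0. In the ATF1/CREB1-KO comparison 8 members were tested and 0 were called, with 1 at an unadjusted p under 0.05, against a background of 0.0715% of 12579 genes called and 9.53% at an unadjusted p under 0.05. The changes of all 8 lay below 0, with a median log2 change of -0.27 beside -0.03 over all genes tested. That direction rests in part on single libraries: without replicate 3, whose ribosomal protein share of 7.05% was the lowest of experiment 2, 6 of the 8 lay below 0 with a median of -0.20 beside -0.10 over all genes. Without replicate 1 it was 6 of 8, and without replicate 2 it was 7 of 8, so that 5 members turned in direction without 1 library or another. In the ATF1/CREB1/CREM-KO comparison 1 of 9 tested members was called, beside 9.17% of 13258 genes in either direction and 5.26% in the direction of lower expression. Of the 1216 genes called there 42.6% were higher, and of the 1291 called with median-ratio scaling between libraries 53.1% were higher. At an unadjusted p under 0.05 there were 3 of the 9, beside 27.0% of genes. The median log2 change of the 9 was -0.06, beside -0.05 over all genes. The count of called members lay near the background in each comparison. No member had an adjusted p under 0.05 by the exact permutation test, where 3 libraries against 3 cannot go below 0.1. With 5 against 5 the limit is 0.00794, and after adjustment over 26 tests a single member at that limit could not pass either. Epgn was below 1 TPM in every comparison and Ereg in experiment 2, and neither was tested there.

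**Figure D1:**
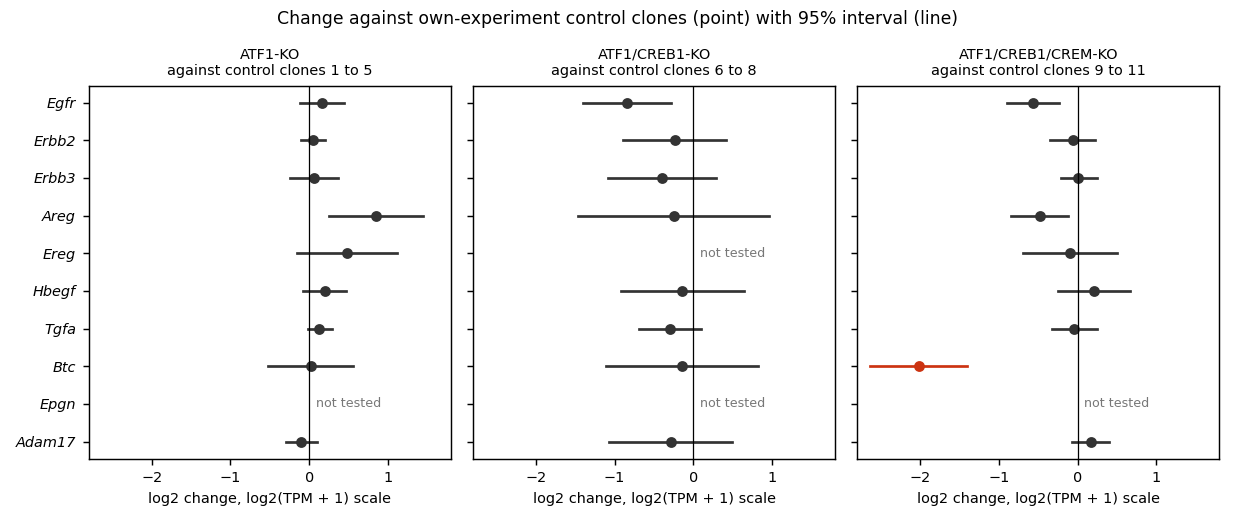
Log2 change of each member against the control clones of its own experiment (points) with the 95% interval of the limma fit (lines), on the log2(TPM + 1) scale, for the 3 knockout labels. The red point is Btc in the ATF1/CREB1/CREM-KO libraries, the member called at an adjusted p under 0.05, at -2.02.

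Egfr, which encodes the EGF receptor, was lower in every library labelled ATF1/CREB1-KO, and in every one labelled ATF1/CREB1/CREM-KO, than in any control clone of the same experiment, and neither difference passed the test. In experiment 2 Egfr stood at 8.14, 8.91 and 12.75 TPM in control clones 6 to 8 and at 5.96, 5.48 and 3.78 TPM in the libraries labelled ATF1/CREB1-KO. The groups did not overlap, and the knockout mean was 51.1% of the control mean. The log2 change was -0.84 (SE 0.238, 95% interval -1.40 to -0.28, limma adjusted p = 0.371). In 1 fit over all 22 libraries with experiment as a covariate, which shares the estimate of spread, the same change had an adjusted p of 0.0133, in a fit that called 4.58% of 13295 genes. Replicate 3, the lowest for Egfr, also had the lowest ribosomal protein share of experiment 2, at 7.05%, and without it the Egfr change was -0.68 (adjusted p = 0.177). Over all alternatives the adjusted p ran from 0.0133 to 0.975. The part of the composition of these libraries in the result was not tested.

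In experiment 3 Egfr stood at 54.34, 40.41 and 52.03 TPM in control clones 9 to 11 and at 29.19, 34.03 and 34.18 TPM in the libraries labelled ATF1/CREB1/CREM-KO. Again the groups did not overlap, and the knockout mean was 66.4% of the control mean. Its log2 change was -0.57 (SE 0.139, 95% interval -0.90 to -0.24, limma adjusted p = 0.0519). It passed the threshold when ATF1/CREB1/CREM-KO replicate 1 (adjusted p = 0.04) or control clone 10 (adjusted p = 0.0439) was left out, and against all 11 control clones the change was 0.07 (adjusted p = 0.959, the highest of the alternatives). Control clones 6 to 8, which lower that pooled mean, belong to experiment 2.

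In experiment 1 Egfr overlapped, at 59.95, 45.60, 47.92, 34.07 and 46.07 TPM in control clones 1 to 5 and 55.08, 51.47, 48.76, 56.18 and 46.29 TPM in the ATF1-KO libraries. The change was 0.16 (SE 0.126, limma adjusted p = 0.781). The difference between labels was itself tested in the fit over 22 libraries, with its shared estimate of spread. The Egfr change in the ATF1/CREB1-KO libraries was lower than that in the ATF1-KO libraries by a log2 difference of -1.0 (SE 0.236, 95% interval -1.49 to -0.51, adjusted p = 0.0372), where 1.46% of 13295 genes were called. For ATF1/CREB1/CREM-KO against ATF1-KO the difference was -0.73 (adjusted p = 0.107, 3.57% of genes called). For ATF1/CREB1/CREM-KO against ATF1/CREB1-KO it was 0.27, with an interval of -0.28 to 0.83 (adjusted p = 0.789, 0.188% of genes called).

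Erbb2, the ligand-less partner receptor, did not pass the test in any comparison. Its levels in experiment 3 were 157.29, 148.58 and 158.31 TPM in the control clones and 176.25, 130.75 and 140.21 TPM in the libraries labelled ATF1/CREB1/CREM-KO, which lay on both sides of the controls. In experiment 2 the control clones were close together, at 25.39 to 26.94 TPM, and the ATF1/CREB1-KO libraries spread around them from 14.81 to 31.01 TPM. The log2 changes were 0.05 (95% interval -0.10 to 0.20) for ATF1-KO, -0.24 (-0.90 to 0.41) for ATF1/CREB1-KO and -0.06 (-0.35 to 0.22) for ATF1/CREB1/CREM-KO.

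Erbb3, the neuregulin receptor, had log2 changes of 0.06 (95% interval -0.25 to 0.37), -0.40 (-1.08 to 0.29) and 0.01 (-0.21 to 0.24) in the same order, with adjusted p-values of 0.93, 0.707 and 0.943. Its lowest value in any library was 8.15 TPM, in ATF1/CREB1-KO replicate 3, while the other libraries of that label, at 17.42 and 15.83 TPM, lay near control clones 6 to 8 at 16.59 to 19.79 TPM. As a share of the summed TPM of the 3 receptors, the part taken by Egfr averaged 18.3% ± 2.75 over control clones 6 to 8 and 12.5% ± 1.55 over the ATF1/CREB1-KO libraries (SD, n = 3 each). The corresponding shares in experiment 3 were 17.0% ± 1.5 in control clones 9 to 11 and 12.3% ± 2.13 in the ATF1/CREB1/CREM-KO libraries. Neither pair of ranges overlapped, and Erbb2 took over 45% of the receptor TPM in every library.

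**Figure D2:**
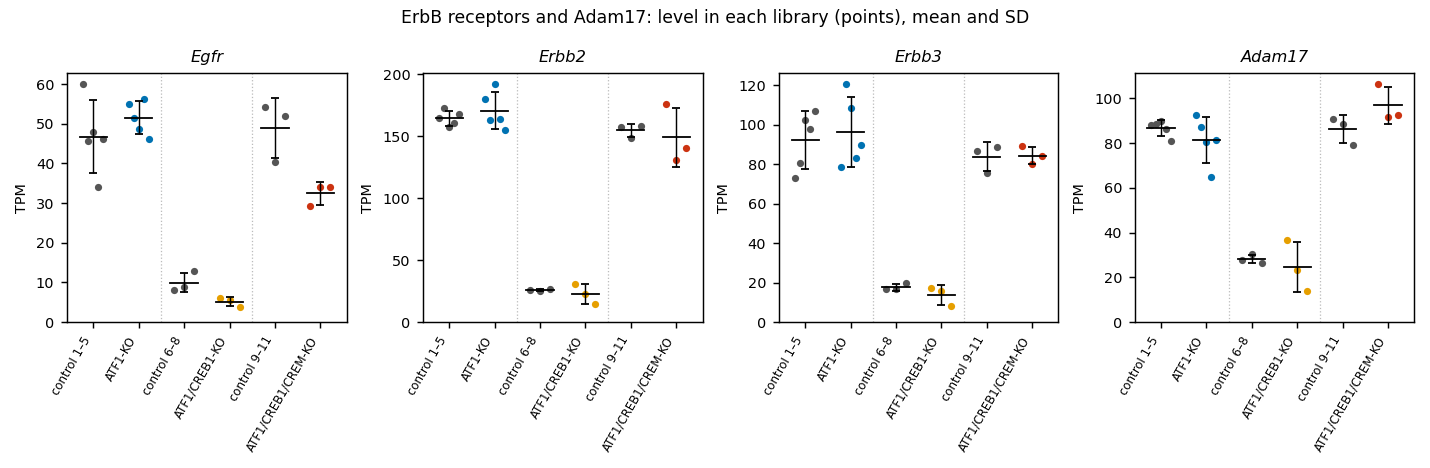
Levels of Egfr, Erbb2, Erbb3 and Adam17 in TPM in each of the 22 libraries (points), with the mean and SD of each group (bars); dotted lines part the 3 experiments. Egfr lies below the control clones in every library labelled ATF1/CREB1-KO (3.78 to 5.96 TPM) and ATF1/CREB1/CREM-KO (29.19 to 34.18 TPM), and all 4 genes are lower in experiment 2 than in the other experiments.

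Adam17, the main sheddase of amphiregulin, epiregulin, HB-EGF and TGF-alpha, was at 90.99, 88.42 and 79.22 TPM in control clones 9 to 11 and at 106.60, 91.59 and 92.47 TPM in the libraries labelled ATF1/CREB1/CREM-KO. Every knockout library was above every control clone, by a log2 change of 0.17 (SE 0.099, limma adjusted p = 0.329) that did not pass the test. In experiment 2 the control clones had 26.56 to 30.25 TPM and the ATF1/CREB1-KO libraries 36.56, 23.21 and 14.03 TPM, on both sides of them. The log2 change there was -0.29 (adjusted p = 0.8), and in experiment 1 it was -0.10 (adjusted p = 0.787).

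Betacellulin (Btc), a ligand of EGFR and ErbB4, was lower in the libraries labelled ATF1/CREB1/CREM-KO. Control clones 9 to 11 had 57.21, 66.17 and 45.39 TPM, and the 3 knockout libraries had 19.45, 10.24 and 10.72 TPM. The groups did not overlap, and the means were 56.3 ± 10.4 TPM and 13.5 ± 5.18 TPM (SD, n = 3 each), a 4.18-fold lower level. The log2 change was -2.02 (SE 0.259, 95% interval -2.64 to -1.41), and the adjusted p was 0.00815 by limma on these libraries and 0.00116 in the fit over 22 libraries, which called 8.02% of genes. The call was lost without control clone 9, where the change was -2.0 (adjusted p = 0.0543), and against all 11 control clones, where it was -1.35 (adjusted p = 0.166). The exact permutation p was 0.1, the smallest that 3 libraries against 3 can give. Over all alternatives the adjusted p ran from 4.18e-04 to 0.166. Aqp2, the summed principal cell markers that include it, and the summed epithelial markers were lower in the same libraries. The summed thick limb and distal tubule markers, mostly Slc12a3, were higher at up to 4.4 TPM, and Crem was not lower. The part of each in the result was not tested. In bulk RNA, fewer cells that express a gene and less of its RNA per cell cannot be told apart.

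Btc did not separate the groups under the other labels. In experiment 1 control clones 1 to 5 had 25.90, 48.56, 51.30, 18.20 and 29.36 TPM, and the ATF1-KO libraries had 34.57, 34.63, 32.40, 34.23 and 28.11 TPM. The control clones spread over a wider range than the knockout libraries, which all lay within it, and the log2 change was 0.02 (SE 0.243, adjusted p = 0.988). Control clone 4, at 18.20 TPM, was below ATF1/CREB1/CREM-KO replicate 1. In experiment 2 control clones 6 to 8 had 22.53, 26.64 and 21.86 TPM, and the ATF1/CREB1-KO libraries had 34.05, 10.31 and 26.70 TPM. Here replicate 2 alone was below the control clones, and the other replicates were above them. Its log2 change was -0.15 (SE 0.411, adjusted p = 0.915). The Btc change under the ATF1/CREB1/CREM-KO label was lower than that under the ATF1-KO label by -2.04 (SE 0.459, 95% interval -3.0 to -1.08, adjusted p = 0.0165). Against the ATF1/CREB1-KO label the difference was -1.88, with an interval of -2.95 to -0.81, and did not pass the threshold (adjusted p = 0.239).

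Amphiregulin (Areg), whose promoter window holds the full cAMP response element shown above, had higher values under the ATF1-KO label and lower values under the ATF1/CREB1/CREM-KO label, and neither difference passed the test. In experiment 1 the control clones had 1.71, 5.87, 2.11, 3.49 and 5.49 TPM and the ATF1-KO libraries had 7.71, 5.09, 5.68, 8.29 and 8.77 TPM. Of the 5 knockout libraries 3 were above every control clone, and control clones 1 and 3 were the lowest. The means were 3.73 ± 1.9 TPM and 7.11 ± 1.63 TPM (SD, n = 5 each), with a log2 change of 0.85 (SE 0.273, limma adjusted p = 0.599). The exact permutation p was 0.0397, or 0.325 after adjustment over the 26 tests of members and comparisons.

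In experiment 3 Areg stood at 5.43, 5.21 and 4.63 TPM in the control clones and 3.48, 3.35 and 3.24 TPM in the libraries labelled ATF1/CREB1/CREM-KO. Again these did not overlap, and the log2 change was -0.48 (SE 0.154, adjusted p = 0.102). In experiment 2 the ATF1/CREB1-KO libraries, at 0.99, 5.39 and 6.84 TPM, held both the lowest and the highest value beside controls of 4.91, 5.91 and 3.07 TPM. Without replicate 1 the change there turned from -0.25 (adjusted p = 0.887) to 0.36 (adjusted p = 0.552, where the alternatives ran from 0.552 to 0.989). The difference in the Areg change between ATF1/CREB1/CREM-KO and ATF1-KO was -1.33, with an interval of -2.39 to -0.27 (adjusted p = 0.191).

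Epiregulin (Ereg) is the neighbour of Areg on chromosome 5, where RefSeq places Epgn, Ereg, Areg and Btc in this order. Its levels in control clones 1 to 5 were 1.23, 4.38, 1.14, 3.63 and 4.49 TPM, and those in the ATF1-KO libraries were 4.05, 3.81, 3.46, 4.52 and 4.80 TPM. Control clones 1 and 3 were the lowest for Ereg as they were for Areg. The log2 changes were 0.48 (SE 0.286, adjusted p = 0.713) for ATF1-KO and -0.10 (SE 0.251, adjusted p = 0.83) for ATF1/CREB1/CREM-KO, and the groups overlapped in each. In experiment 2 Ereg was listed at 0.36 to 1.05 TPM. The labels do not state that counting used strand, so reads where genes overlap on opposite strands cannot be assigned. In the GENCODE M21 annotation Gm19610, at up to 4.01 TPM, overlaps 152 bases of Ereg, so that Ereg levels are uncertain. The same limit touches Erbb2, which shares 9 bases with Mien1 (137.99 to 669.94 TPM), Adam17, which shares 311 bases with Iah1 (38.45 to 99.16 TPM), and Egfr, whose span holds Egfros (0.19 to 0.88 TPM).

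Hbegf, which encodes HB-EGF, had the highest mean of the ligands over the 22 libraries together, at 41.6 TPM, although Btc was above it in control clones 9 to 11. Control clones 9 to 11 were close together at 36.06, 37.38 and 39.21 TPM, while those labelled ATF1/CREB1/CREM-KO had 31.50, 51.90 and 50.05 TPM. Replicate 1 was below and the other replicates were above every control clone, so the log2 change of 0.21 (SE 0.192, adjusted p = 0.532) rests on libraries that differ among themselves. Without replicate 1 the change was 0.43 (adjusted p = 0.0114, where the alternatives ran from 0.0114 to 0.852). The same replicate had the highest Btc of its label. In experiment 2 the ATF1/CREB1-KO libraries had 20.12, 50.26 and 30.58 TPM beside controls of 31.26 to 37.64 TPM, and replicate 2, the highest for Hbegf, was the lowest for Btc. Its log2 change was -0.14 (adjusted p = 0.901), and in experiment 1, at 34.39 to 53.33 TPM in control clones and 41.99 to 55.89 TPM in ATF1-KO libraries, it was 0.20 (adjusted p = 0.729).

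Tgfa, which encodes TGF-alpha, passed the test in no comparison. Its ATF1-KO values, at 35.39, 35.14, 35.74, 35.15 and 33.76 TPM, lay at the upper end of control clones 1 to 5 or above, which were at 29.58, 33.66, 34.36, 33.80 and 28.21 TPM, with 4 of 5 above every control. The log2 change was 0.13 (SE 0.0716, limma adjusted p = 0.697, exact permutation p = 0.0238, 0.325 after adjustment over 26 tests). In experiment 2 the values were 7.47, 8.55 and 6.71 TPM in the control clones and 6.09, 5.97 and 5.78 TPM in the ATF1/CREB1-KO libraries. The groups did not overlap, and the log2 change was -0.30 (SE 0.167, adjusted p = 0.618). In experiment 3 they overlapped, with a log2 change of -0.04 (adjusted p = 0.852).

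Epgn was at or near 0 throughout, at 0 to 0.22 TPM in control clones. The libraries labelled ATF1/CREB1/CREM-KO had 0.42, 0.22 and 0.20 TPM, above control clones 9 to 11 at 0, 0.15 and 0 TPM, which is too low to be tested here. Counting Epgn, 5 of the 10 members did not overlap between groups in experiment 3, with Egfr, Areg and Btc lower and Adam17 and Epgn higher, where 34.6% of tested genes did not overlap. In experiment 2 it was 2 of 10, Egfr and Tgfa, where 19% of tested genes did not overlap. In experiment 1 it was 0 of 10, where 1.3% of tested genes did not overlap.

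**Figure D3:**
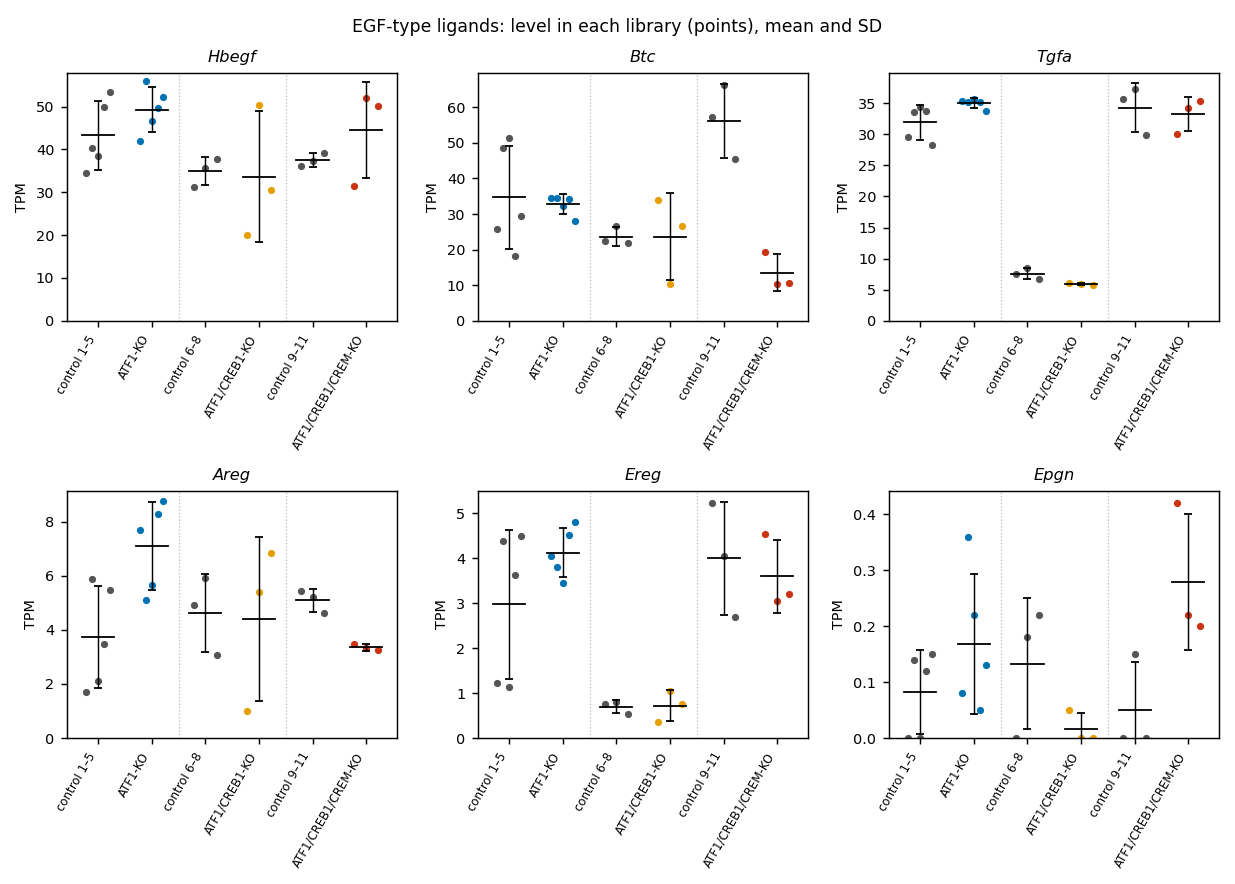
Levels of the 6 EGF-type ligands in TPM in each of the 22 libraries (points), with the mean and SD of each group (bars); dotted lines part the 3 experiments. The libraries labelled ATF1/CREB1/CREM-KO lie at 10.24 to 19.45 TPM for Btc, below control clones 9 to 11, and ATF1/CREB1-KO replicates differ among themselves for Hbegf, Btc and Areg.

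The make-up of the ligand pool moved with Btc. In control clones 9 to 11 Btc took 40.8% ± 3.36 (SD, n = 3) of the summed TPM of the 6 ligands, with a range of 37.3% to 44.0%. In the libraries labelled ATF1/CREB1/CREM-KO its share was 14.0% ± 6.66 (SD, n = 3), with a range of 9.95% to 21.7%. The summed level was 137 ± 14.2 TPM in these control clones and 98.5 ± 7.79 TPM in these knockout libraries. Hbegf and Tgfa together made up the larger part of what remained, at mean shares of 44.8% and 33.7%. In experiment 1 the summed level was 117 ± 16.0 TPM in the control clones and 129 ± 4.88 TPM in the ATF1-KO libraries, which overlapped. In experiment 2 the sums were similar, at 71.6 ± 5.62 TPM and 68.5 ± 5.97 TPM, while the share of Btc ran from 14.1% to 55.2% among the ATF1/CREB1-KO libraries. These shares are descriptions, since the ligands' changes are tested above.

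**Figure D4:**
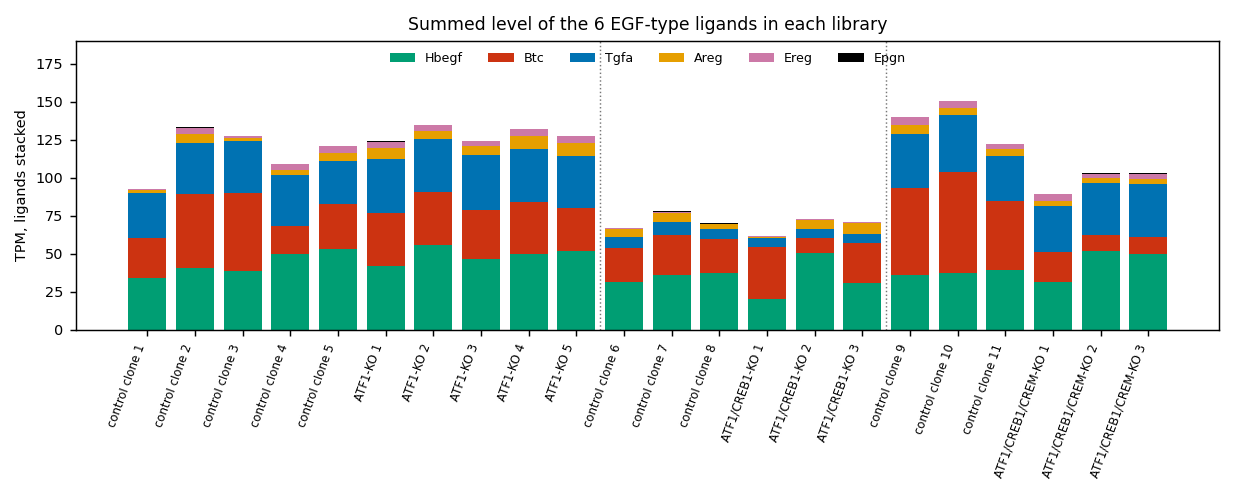
Summed TPM of the 6 EGF-type ligands in each library, stacked by ligand, with the experiments parted by dotted lines. The Btc layer takes 37.3% to 44.0% of the bar in control clones 9 to 11 and 9.95% to 21.7% in ATF1/CREB1/CREM-KO libraries.

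The control clones of experiment 2 held far less of most members than the other control clones. Their mean TPM was 16.2% of that of the other 8 for Erbb2, 19.9% for Erbb3, 20.9% for Egfr, 20.8% for Ereg, 23.1% for Tgfa and 32.6% for Adam17. Btc stood at 55.4%, Hbegf at 84.8% and Areg at 109%, so that Hbegf, at 34.9 TPM, was the most abundant member in control clones 6 to 8. Over 13374 genes the median was 30.6%. The 9 members that averaged at least 1 TPM in the other 8 control clones were set against the length of the longest coding transcript. Across them this percentage had a Spearman correlation of -0.8 with that length, and across 11247 genes of -0.301. Both are across genes measured in the same libraries and are descriptions. The ribosomal protein share differed between these libraries too, and what sets experiment 2 apart was not tested.

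**Figure D5:**
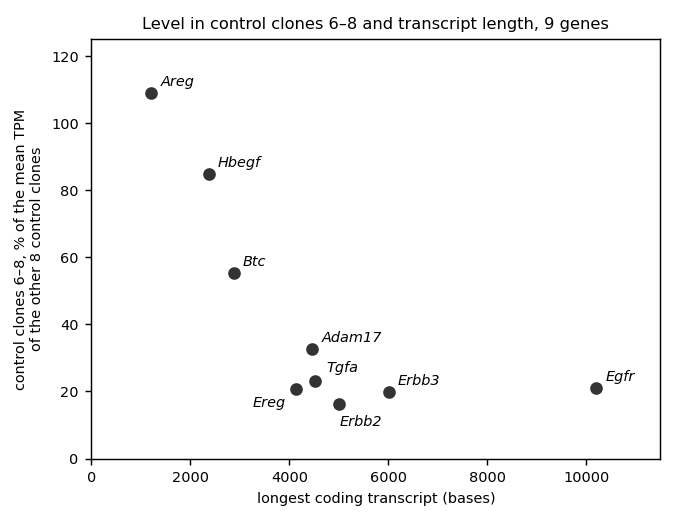
Mean TPM in control clones 6 to 8 as a percentage of the mean in the other 8 control clones, against the length of the longest coding transcript in bases. Shown are the 9 members that averaged at least 1 TPM in those other 8. Areg, the shortest, stands at 109% and the receptors at 16.2% to 20.9%.

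The machinery around the receptors was read from 5 lists of other genes, 87 in all, of which 86 were found. For ATF1-KO 0 of 79 tested genes were called, and for ATF1/CREB1-KO 0 of 77, with ERK-responsive Fosl1 called in the fit over 22 libraries for ATF1/CREB1-KO (log2 change 1.07, adjusted p = 0.0433). At an unadjusted p under 0.05, the ATF1-KO comparison had 4 of 15 shedding genes, 5 of 15 ERK-responsive genes and 0 in the other lists, beside 7.61% of all genes. The ATF1/CREB1-KO comparison had 2 of 15, 3 of 14 and 0, beside 9.53%. In the ATF1/CREB1/CREM-KO comparison 7 of 78 were called, 5 higher and 2 lower. That is 8.97%, near the background of 9.17%, which also stands beside the count of each list below. At an unadjusted p under 0.05 there were 6 of 15 shedding genes and 6 of 17 genes of receptor restraint and turnover. There were 4 of 30 signal relay genes and 4 of 15 ERK-responsive genes, beside 27.0% of all genes. None of the 7 kept its call in all 6 fits that left out 1 library, and Fosl1 and Rnf41 were the ones that kept theirs in the fit over 22 libraries.

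Among 15 tested genes of ligand shedding and precursor transport, 2 rose in the libraries labelled ATF1/CREB1/CREM-KO, where 9.17% of all genes were called. The median log2 change of the list was 0.22, beside -0.05 over all genes. Adam8, a metalloprotease, rose from 5.5 ± 0.521 TPM to 11.4 ± 0.633 TPM (SD, n = 3 each, log2 change 0.94, limma adjusted p = 0.011). Furin, the convertase that activates ADAM proteases, rose from 68.2 ± 1.88 TPM to 89.7 ± 6.82 TPM (log2 change 0.39, adjusted p = 0.0421). In the fit over 22 libraries their adjusted p-values were 0.0963 and 0.315.

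Of 17 tested genes of receptor restraint and turnover, 1 rose and 2 fell, with a median log2 change of -0.04. Lrig1, a transmembrane protein that promotes degradation of ErbB receptors, fell from 34.3 ± 3.44 TPM to 22.1 ± 2.14 TPM (SD, n = 3 each, log2 change -0.61, limma adjusted p = 0.0291). Rnf41, the ubiquitin ligase for ErbB3, fell from 26.8 ± 0.89 TPM to 19.7 ± 1.35 TPM (log2 change -0.43, adjusted p = 0.0463). Ptprj, a receptor phosphatase, rose from 27.3 ± 2.15 TPM to 37.1 ± 0.901 TPM (log2 change 0.43, adjusted p = 0.041). Lrig1 (adjusted p = 0.0599) and Ptprj (adjusted p = 0.238) lost their calls in the fit over 22 libraries.

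Of 30 tested genes of the signal relay below the receptors, the adaptors, RAS and RAF proteins, MAP kinases and PI3-kinase subunits, 0 were called by limma on the libraries of experiment 3, with 4 at an unadjusted p under 0.05, a smaller share than the 27.0% of all genes, and 1 called in the fit over 22 libraries. Their median log2 change was -0.01. Of 15 tested ERK-responsive genes 2 rose, while the median of the list was -0.12. Fosl1, an AP-1 subunit, rose from 9.68 ± 1.59 TPM to 24 ± 6.37 TPM (SD, n = 3 each, log2 change 1.21, limma adjusted p = 0.0197, 0.0139 in the fit over 22 libraries). Dusp6, the phosphatase that acts on ERK, rose from 73.5 ± 10.8 TPM to 120 ± 8.46 TPM (log2 change 0.71, adjusted p = 0.022, 0.154 in the fit over 22 libraries).

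The genes most like Erbb2 and Hbegf, the receptor and the ligand with the highest mean over all 22 libraries, were ranked by the Pearson correlation of log2(TPM + 1) over 22 libraries, after each experiment's mean was subtracted, among the 10461 genes that averaged 5 TPM or more. For Erbb2 these were Epb41l1 (r = 0.93), C77080 (r = 0.90), Creb3l2 (r = 0.90), Arid1b (r = 0.89) and Dlg5 (r = 0.88). For Hbegf they were Tnip1 (r = 0.82), Rangap1 (r = 0.81), Abcb1b (r = 0.79), Hint1 (r = 0.79) and Rbm22 (r = 0.78). The points share libraries and experiments, and no p is given. On this scale both genes spread most in the ATF1/CREB1-KO libraries of experiment 2, at 14.81 to 31.01 TPM for Erbb2 and 20.12 to 50.26 TPM for Hbegf. The lowest Erbb2 value was in ATF1/CREB1-KO replicate 3, where the ribosomal protein share was 7.05%. The part of single libraries in these correlations was not tested.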

How the data were processed

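Transcript abundance was measured by RNA sequencing in 22 libraries of mpkCCD cells. The 18 rescue samples of the labels were not analysed here. A SMARTer V4 kit with 8 PCR cycles and Nextera XT were used for the libraries, per the labels' protocols. The submitters' processing notes name STAR and RSEM. The genome build and annotation are not given in the sources used here. The deposited values are TPM per gene, a unit in which every library has the same sum. Depth is therefore unknown, and precision is given as the spread between libraries.

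Each knockout label was compared with the control clones of its own experiment by limma 3.58.1 in R 4.3.3 (lmFit, eBayes with a trend, two-sided) on log2(TPM + 1), kept to genes that averaged 1 TPM or more, and p-values were adjusted by Benjamini-Hochberg over every tested gene. Fold changes on this scale understate the change of low genes. Differences between labels came from 1 fit over all 22 libraries with experiment as a covariate. Exact two-sided permutation tests were run over 26 pairs of member and comparison. The limma script was tested on simulated data.

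Members, gene lists, motifs and alternatives were chosen with earlier results of these data known. Members are always named. Other list genes were named where called, at most 4 per list and comparison, and the 5 genes most like the receptor and the ligand of highest mean over 22 libraries were named by correlation. Alternatives were another pseudocount, no filter on low values, median-ratio scaling, all 11 control clones, the fit over 22 libraries, leaving out each library and a replicate block. Promoters were read from RefSeq (GRCm38.p6).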

Additional observations from a re-analysis of the deposited data

Results flagged for a closer look

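The Egfr change differed between knockout labels in a test of the difference itself. The log2 change was -0.84 in the libraries labelled ATF1/CREB1-KO and 0.16 in those labelled ATF1-KO, each against its own control clones, a difference of -1.0 (SE 0.236, limma adjusted p = 0.0372). All 3 libraries labelled ATF1/CREB1-KO were below control clones 6 to 8, while the ATF1-KO libraries overlapped theirs. The test of the difference shares 1 estimate of spread over all 22 libraries. By limma on its own libraries alone the ATF1/CREB1-KO change had an SE of 0.238, beside 0.187 in the shared fit. It was not called on its own libraries (adjusted p = 0.371). The difference was tested with the shared spread alone, and how far it depends on that spread was not tested.

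The Btc change also differed between labels, at -2.02 in the libraries labelled ATF1/CREB1/CREM-KO and 0.02 in those labelled ATF1-KO, a difference of -2.04 (SE 0.459, limma adjusted p = 0.0165). All 3 libraries labelled ATF1/CREB1/CREM-KO were below control clones 9 to 11. Label and experiment change together in each of these differences and cannot be told apart beyond what the own-experiment control clones account for. In the groups of 5 libraries, 0 of 20 sets of member values held a library that stood apart by Dixon's test.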

How the results depend on the processing

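Leaving out 1 library gave 0 to 1 genes called for ATF1-KO, 0 to 60 for ATF1/CREB1-KO (9 with all libraries) and 185 to 3317 for ATF1/CREB1/CREM-KO (1216 with all), the last reached without its replicate 1. It gave 0 to 3 members called for ATF1/CREB1/CREM-KO, 0 of them without control clone 9. For ATF1/CREB1-KO, genes called came to 0 without a filter on low values, 18 with median-ratio scaling, 4260 against all 11 control clones and 609 in the fit over 22 libraries, and members called to 5 against all 11 control clones and 1 in the fit over 22 libraries. For ATF1/CREB1/CREM-KO, genes called came to 710 without a filter and 137 against all 11 control clones, where 0 members were called. Turns in direction were counted on rounded changes, and a change that rounds to 0 was not counted as turned. Examples are Btc for ATF1-KO without ATF1-KO replicate 1 or 2, and Tgfa for ATF1/CREB1/CREM-KO with median-ratio scaling. Of 139 member changes under settings other than leaving out a library, 6 turned in direction, all against all 11 control clones: Btc to -0.07 and Adam17 to 0.34 for ATF1-KO, and Egfr to 0.07, Erbb2 to 0.58, Ereg to 0.51 and Tgfa to 0.56 for ATF1/CREB1/CREM-KO. The difference in the Erbb3 change between ATF1/CREB1/CREM-KO and ATF1-KO turned to 0.02 with median-ratio scaling. Of 192 changes with 1 library left out, 16 turned in direction, none of them called. Their ranges were -0.03 to 0.12 for Erbb3 and -0.18 to 0.18 for Btc (ATF1-KO), -0.62 to 0.36 for Areg, -0.47 to 0.17 for Hbegf, -0.47 to 0.34 for Btc, -0.49 to 0.02 for Erbb2 and -0.61 to 0.05 for Adam17 (ATF1/CREB1-KO), and -0.06 to 0.06 for Erbb3, -0.14 to 0.02 for Tgfa, -0.19 to 0.02 for Erbb2 and -0.30 to 0.08 for Ereg (ATF1/CREB1/CREM-KO). The causes were not tested. In experiment 1 control and knockout libraries share replicate numbers, but deviations of same-numbered libraries correlated at only -0.10 to 0.08, and 1 of 5 knockout libraries correlated best with its own number. With the replicate block 0 genes and 0 members were called (Areg 0.85, adjusted p = 0.707). No paired analysis was possible for the other comparisons because their groups share no replicate numbers. Depth is unknown, which limits what can be read from Epgn, Ereg and Areg.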
